A study of Mus musculus with 24 samples.

Results

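Red-cell genes were followed in RNA from mouse thymus. The set held 8 genes chosen by name for their known part in red-cell formation, namely Hba-a1, Alas2, Slc4a1, Klf1, Epb42, Gata1, Ahsp and Ermap. Probes were assigned to them through the RefSeq accession printed in the array design, which gave 9 probes for 7 of the 8 genes among 55681 probes, of which 28026 carried the name of 1 of 21154 genes. Ermap had 3 probes and the other 6 genes had 1 each. Ahsp is not analysed here.

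The animals were C57BL/6J mice of 4 to 5 weeks, 3 females and 3 males in each of 4 groups. Controls were not irradiated. The low dose group received 0.075 Gy of X-rays, the high dose group received 1.75 Gy of γ-rays, and the radio-adaptive response (RAR) group received 0.075 Gy of X-rays and then 1.75 Gy of γ-rays 6 h later. All samples were labelled as primary thymocytes, obtained by mechanical dispersal of the thymus through a nylon strainer, and neither a lysis of red cells nor a cell sort is described in the sources used here. The time from irradiation to sampling is also not given in the sources used here. Each of 24 Agilent arrays carried thymocyte RNA labelled with Cy5 beside a commercial pooled mouse reference RNA labelled with Cy3, with the dyes in the same orientation on every array.

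Red cells arise in marrow and spleen from progenitors in which the transcription factor GATA1 switches on the genes of haemoglobin, heme synthesis and the red-cell membrane, later with KLF1. Alas2 starts heme synthesis in these cells, the α- and β-globin genes supply the protein chains, and band 3 (Slc4a1) and protein 4.2 (Epb42) build the membrane. Young red cells lose the nucleus but keep globin RNA for some time, so that blood within an organ can contribute such RNA. GATA1 is also made in megakaryocytes, mast cells and eosinophils. The thymus is not known as a main site of red-cell formation.

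All 13 thymocyte genes listed (among them Cd3e, Cd4, Cd8a and Rag1) gave a Cy5 signal well above background on each of the 24 arrays, and their log2 ratio over the reference lay between 2.9 and 9.9. Between 33.6% and 71.3% of probes were well above background in Cy5, and both extremes were female RAR arrays (replicates 3 and 2). No spot was saturated. The 3 slides of 8 arrays crossed the groups only in part, since all female controls were on slide 3 and all female high dose arrays on slide 1. In bulk RNA, fewer cells of a type and less RNA per cell cannot be told apart. As 3 animals stood in each group, an exact two-sided permutation test of a single probe cannot go below p = 0.1, and calls rest on the limma fit over all 55681 probes (a difference of 1.5-fold or more with an adjusted p below 0.05).

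Of the 7 erythroid genes measured, 4 gave a Cy5 signal well above background on each array: Hba-a1, Alas2, Gata1 and Ermap. These 4 behaved in 2 ways. The signals of Hba-a1 and Alas2 differed up to 13.6-fold and 11-fold between animals and rose and fell together, with no called difference from control in Cy5. Gata1 and Ermap differed 3.41-fold and 3.03-fold over the 24 arrays, and in Cy5 their 18 irradiated arrays all lay above the 6 control arrays. The share of all probes whose arrays part without overlap is not given, here or below. In Cy5, 3.04% to 29.6% of all probes were called higher in the 6 comparisons with control. Slc4a1 was above background on 15 arrays, Epb42 on 2 and Klf1 on 0.

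In the log2 ratio of Cy5 over Cy3, the number of the 7 genes past the threshold against controls was 0 in low dose females, against 4.75% of all probes higher and 4% lower. It was 1 in low dose males (Hba-a1, higher, against 3.19% of probes higher and 3.44% lower) and 1 in high dose females (Alas2, lower, against 3.63% of probes lower and 4.21% higher). High dose males had 2 genes higher (Hba-a1 and Ermap), against 5.18% of probes higher and 5.33% lower. RAR females had the same 2 genes higher and Alas2 lower, against 9.61% of probes higher and 10.8% lower, and RAR males had Hba-a1 and Ermap higher, against 11.2% higher and 13.3% lower. RAR against high dose gave 1 gene in females (Hba-a1, against 3.97% higher and 3.28% lower) and 0 in males (3.07% and 2.77%). RAR against low dose gave 0 in females (2.26% and 1.86%) and 0 in males (4.96% and 4.8%). Against controls, the median difference over the 7 genes lay between -0.39 in RAR females and 0.27 in low dose females, where that over all probes lay between -0.045 in low dose females and 0.001 in low dose males on the same log2 scale.

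**Figure D1:**
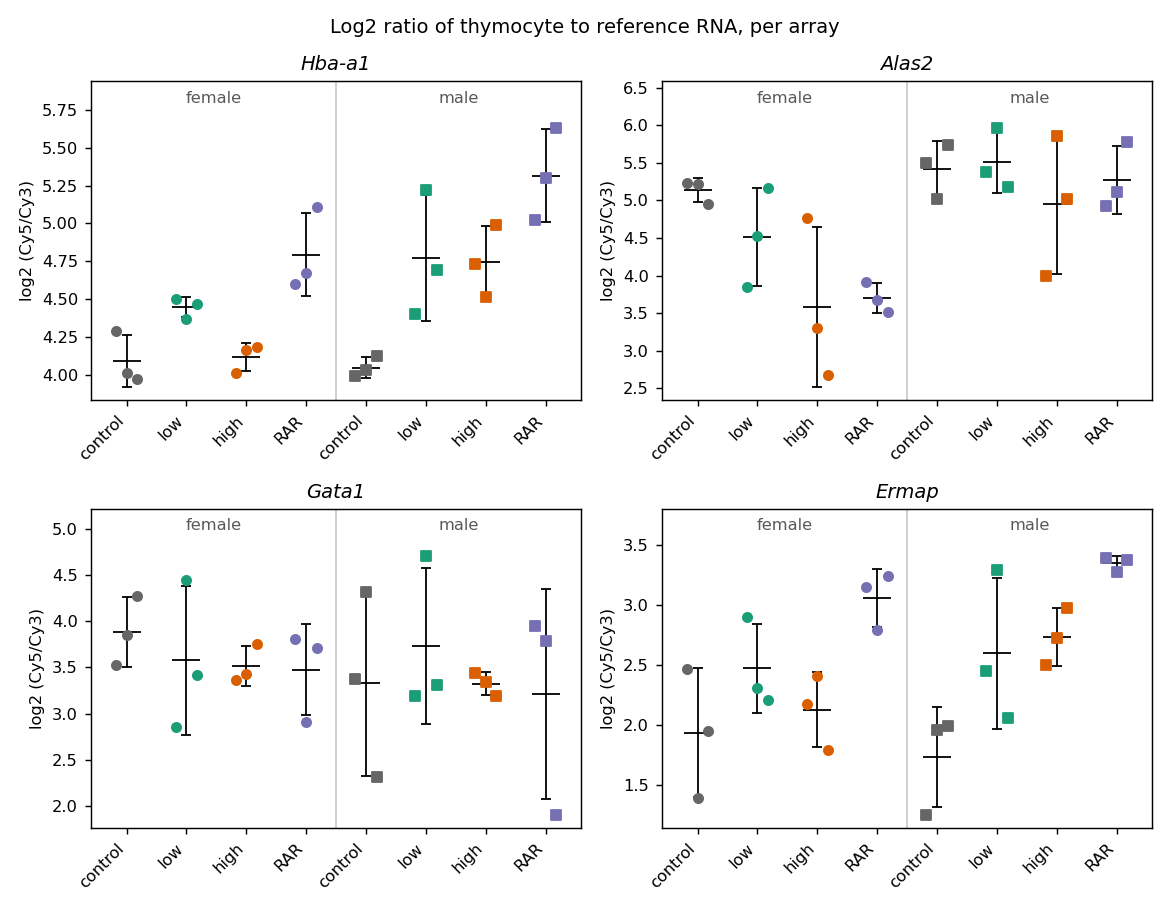
Log2 ratio of thymocyte RNA (Cy5) over reference RNA (Cy3) for the 4 erythroid genes detected on all arrays, with 1 point per array and bars for the mean ± SD of 3 arrays per group. Hba-a1 and Ermap are highest in RAR males, at means of 5.32 and 3.35, while Gata1 shows no ordering by group.

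Hba-a1 encodes an α-globin chain of haemoglobin and lies on chromosome 11 (GRCm38.p6, 32283672 to 32284486). Its copy Hba-a2 is nearly identical, so that values of either are uncertain. The 250 bases before its start (chr11:32283422-32283671, plus strand, from RefSeq) are shown with those of the other 3 detected members further on, because these 4 genes carry the results. Searched on both strands, they hold neither the GATA motif AGATAA nor the KLF1 motif CCNCNCCC, and so have no capitals.
Hba-a1: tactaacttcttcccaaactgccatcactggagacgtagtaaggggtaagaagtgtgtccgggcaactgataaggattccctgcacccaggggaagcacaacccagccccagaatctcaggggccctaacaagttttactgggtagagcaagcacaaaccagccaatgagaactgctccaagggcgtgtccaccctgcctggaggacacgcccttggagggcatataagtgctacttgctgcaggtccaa
The 2 motifs were present in 9.99% and 45.9% of 32851 RefSeq windows of the same length. A match or its absence describes these letters in this window only, and no other form of either motif was searched in any window.

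The log2 ratio of Hba-a1 was 4.29, 4.01 and 3.97 in female controls and 3.99, 4.03 and 4.12 in male controls. RAR males had 5.02, 5.30 and 5.63, and RAR females 4.60, 4.67 and 5.11. All 6 RAR arrays lay above all 6 control arrays, with 9.61% and 11.2% of all probes called higher in RAR females and males. The difference was 1.27 ± 0.192 (SE) in males (limma adjusted p = 4.3e-05, n = 3 per group) and 0.70 ± 0.192 in females (adjusted p = 0.00978).

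Low dose males had Hba-a1 ratios of 4.40, 5.22 and 4.69, and high dose males 4.73, 4.51 and 4.99. Both groups lay above the male controls, by 0.72 (limma adjusted p = 0.0202) and 0.70 (adjusted p = 0.0172). Low dose females, at 4.50, 4.37 and 4.47, lay above their controls without passing the threshold (0.36, adjusted p = 0.281). High dose females, at 4.01, 4.16 and 4.18, overlapped their controls (0.02, adjusted p = 0.979). The female RAR group was 0.68 above the female high dose group (adjusted p = 0.0295, against 3.97% of probes called higher), while the male RAR group was 0.57 above the male high dose group (adjusted p = 0.0688) and 0.55 above the male low dose group (adjusted p = 0.0623).

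Of these Hba-a1 calls in the ratio, that of RAR males held without any single array, and the others rested on few. The low dose male call was lost without control replicate 1 or 2 or low dose replicate 2 (0.70, 0.72 and 0.50, limma adjusted p = 0.0736, 0.0559 and 0.131). The high dose male call was lost without control replicate 1 or high dose replicate 3 (0.67 and 0.58, adjusted p = 0.0598 and 0.0915). The RAR female call was lost without RAR replicate 3 (0.54, adjusted p = 0.0607), and the difference between RAR and high dose females without that array (0.52, adjusted p = 0.129) or without high dose replicate 1, 2 or 3 (0.62, 0.70 and 0.71, adjusted p = 0.091, 0.0632 and 0.0656). Quantile normalization ended the male low and high dose calls (0.53 and 0.56, adjusted p = 0.213 and 0.142), and slide as a block ended those of high dose males, RAR females and RAR over high dose in females (0.58, 0.52 and 0.67, adjusted p = 0.152, 0.279 and 0.0524). RAR above high dose in males passed without high dose replicate 3 (0.69, adjusted p = 0.0483), and RAR above low dose in males without low dose replicate 2 (0.77, adjusted p = 0.00671) or RAR replicate 1 (0.69, adjusted p = 0.0357).

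The single channels of Hba-a1 did not follow the order of its ratio. On the scale of log2 Cy5 signal over each array's 75th percentile, Hba-a1 was 7.26, 5.59 and 4.98 in female controls and 6.94, 5.95 and 7.37 in male controls. It was 5.02, 5.68 and 7.01 in RAR females and 6.01, 7.82 and 7.28 in RAR males. RAR arrays overlapped the controls in both sexes. In Cy5 alone no difference from control passed the threshold for Hba-a1: the values ran from -1.26 (female high dose, limma adjusted p = 0.248) to 0.28 (male RAR, adjusted p = 0.77), each with an SE of 0.699.

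The remaining Cy5 values of Hba-a1 were 5.48, 5.55 and 6.26 in low dose females and 5.48, 7.99 and 5.47 in low dose males. High dose females had 5.14, 4.69 and 4.22, and high dose males 6.55, 6.28 and 6.91. The highest of all 24 values was thus a low dose male, and the lowest a high dose female.

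The Cy3 signal of the same probe, which comes from a reference RNA shared by all arrays, was not constant. Scaled in the same way it ran from 0.07 to 3.26, a 9.12-fold range, and its SD over 24 arrays was 0.855. Over 14932 probes above background in both channels on every array the median SD of Cy3 was 0.105, which puts Hba-a1 at percentile 99.2. Cy3 of Hba-a1 followed Cy5 across arrays (Pearson r = 0.885, permutation p = 1e-05, the smallest that 100000 permutations give; adjusted over 5 relations 1.67e-05; Spearman rho = 0.868; r = 0.873 without the 2 arrays farthest from the median of Cy5). Within slides 1, 2 and 3, with 8 arrays each, r was 0.944, 0.86 and 0.958. Within the 6 controls it was 0.995, and within the 18 irradiated arrays 0.945. Against controls the Cy3 difference was -1.02 in RAR males and -0.76 in RAR females, so that on average the ratio rose there with a lower Cy3 signal and an almost equal Cy5 signal, though neither Cy3 difference passed the threshold (adjusted p = 0.277 and 0.302). What moved Cy3 with Cy5 was not tested. The ratio of this probe divides by a reference signal that was not constant, and it may not measure the level of the gene. The same holds for the globin ratios that follow.

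Of the other globin genes, 4 followed Hba-a1 in Cy5. Hba-a2, Hbb-b2, Hbb-bt and Hbb-b1, which encode α- and β-globin chains of the adult, were the globins above background in Cy5 on every array. Their Cy5 signals correlated with that of Hba-a1 over 24 arrays at r = 0.992, 0.988, 0.974 and 0.959, as a description, since these copies share sequence, arrays and scaling. In the ratio, 3 of 7 globin genes were called higher in RAR females and 3 of 7 in RAR males, against 9.61% and 11.2% of all probes. Hba-a2 was 1.42 ± 0.239 higher in RAR males and 0.89 higher in RAR females (limma adjusted p = 0.000126 and 0.00829). Hbb-b2 was 0.99 and 0.65 higher and Hbb-bt 0.97 and 0.61 higher, in males and females. Hbb-b1, whose Cy3 was above background on 7 arrays, differed by 0.16 and 0.31 (adjusted p = 0.901 and 0.774). In Cy5 alone the number of globin genes called was 0 in all 6 comparisons with control, and Hba-a2 differed by 0.50 in RAR males (adjusted p = 0.542). The embryonic globin gene Hba-x was above background on 0 arrays, Hbb-y on 3 and Hbb-bh1 on 22. Hbb-bh1, also embryonic, did not follow Hba-a1 in Cy5 (r = 0.0595) and had uncalled ratio differences of -0.40 in RAR males and 0.77 in RAR females.

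Alas2 encodes the erythroid 5-aminolevulinate synthase, which carries out the first and rate-limiting step of heme synthesis. It lies on chromosome X (150547417 to 150570622), and the 250 bases before its start (chrX:150547167-150547416, plus strand) hold 1 GATA motif and 4 KLF1 motifs, some of which overlap, in capitals. The GATA motif starts 86 bases before the start and the KLF1 motifs 42, 40, 35 and 26 bases before it, both on the opposite strand, so that their reverse complements are printed.
Alas2: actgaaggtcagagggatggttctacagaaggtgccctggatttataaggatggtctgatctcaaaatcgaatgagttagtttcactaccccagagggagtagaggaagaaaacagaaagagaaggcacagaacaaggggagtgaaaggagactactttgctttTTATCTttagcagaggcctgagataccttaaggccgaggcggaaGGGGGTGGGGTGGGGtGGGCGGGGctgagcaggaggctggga
Among all windows 2.78% held both motifs.

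In Cy5, Alas2 was 1.04, -0.63 and -1.21 in female controls and 0.80, -0.32 and 1.18 in male controls. It was -1.96, -1.30 and 0.14 in RAR females and -1.11, 0.92 and 0.04 in RAR males. The order of the arrays was close to that of Hba-a1: the 3 female controls, for example, stood in the same order for both genes. Over 24 arrays the Cy5 signals of Alas2 and Hba-a1 correlated at r = 0.942 (permutation p = 1e-05, adjusted 1.67e-05; rho = 0.926; r = 0.929 without the 2 farthest arrays). The relation held within each slide (r = 0.965, 0.95 and 0.963 for slides 1, 2 and 3), within controls (0.999) and within irradiated arrays (0.952). For deviations from the group means, r was 0.985, so that animals of the same sex and treatment differed in both genes together.

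**Figure D2:**
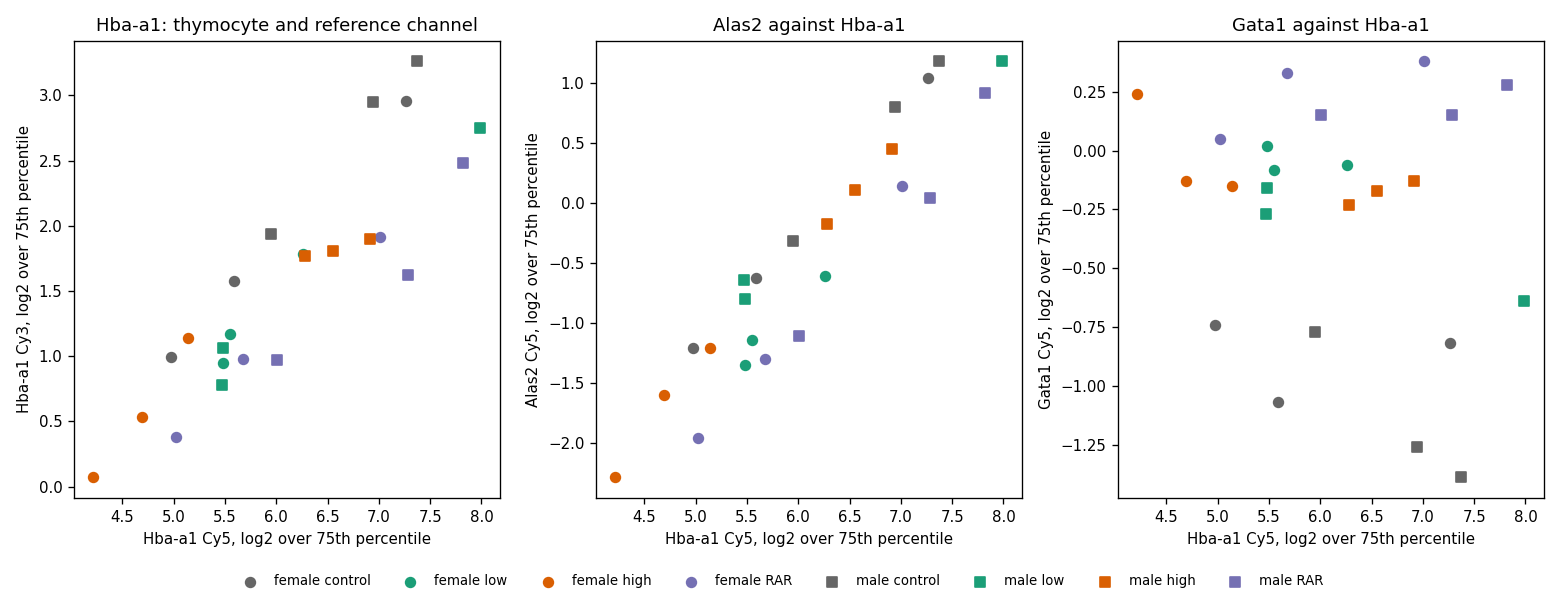
Each point is 1 of 24 arrays, coloured by treatment, with circles for females and squares for males, and all axes are log2 signals over the array's 75th percentile. Hba-a1 Cy3 and Alas2 Cy5 follow Hba-a1 Cy5 (r = 0.885 and 0.942), whereas Gata1 Cy5 separates the 6 controls from the 18 irradiated arrays.

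Low dose females had Alas2 at -1.35, -1.14 and -0.61, and low dose males at -0.80, 1.18 and -0.64. High dose females had -1.21, -1.60 and -2.29, and high dose males 0.11, -0.18 and 0.45. The high dose females reached the lowest values, and every other group overlapped its controls. In Cy5 alone no difference from control passed the threshold, and that of high dose females was -1.44 ± 0.671 (limma adjusted p = 0.156).

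In the ratio, Alas2 was called lower in high dose females (-1.56 ± 0.48, limma adjusted p = 0.0386) and RAR females (-1.43 ± 0.48, adjusted p = 0.0322). Female controls had ratios of 5.23, 5.22 and 4.95, female high dose arrays 4.76, 3.30 and 2.68, and female RAR arrays 3.91, 3.68 and 3.52. Neither irradiated group overlapped the controls, with 3.63% and 10.8% of all probes called lower in high dose and RAR females. Leaving out single female arrays ended both calls: without high dose replicate 3 the first difference was -1.11 (limma adjusted p = 0.193), without control replicate 1, 2 or 3 it was -1.51, -1.51 and -1.65 (adjusted p = 0.0998, 0.0923 and 0.076), and without high dose replicate 2 it was -1.42 (adjusted p = 0.128). The RAR difference was -1.38, -1.39 and -1.52 without control replicate 1, 2 or 3 (adjusted p = 0.0805, 0.0807 and 0.0553), and -1.42 and -1.34 without RAR replicate 2 or 3 (adjusted p = 0.0741 and 0.0867). With normexp and loess the differences were -0.89 and -0.52 (adjusted p = 0.178 and 0.403), and with slide as a block -1.28 and -1.23 (adjusted p = 0.531 and 0.334). The Cy3 signal of this probe was well above background on 2 of 24 arrays, both male, so these female ratios divide by a reference signal that was not well above background on any female array. In males the differences were 0.08, -0.47 and -0.15 for low dose, high dose and RAR, and none passed the threshold.

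Gata1 encodes the transcription factor that red-cell and megakaryocyte progenitors require and that mast cells and eosinophils also make. In Cy5 it was higher than in controls in all 6 comparisons, by 1.72-fold to 2.52-fold. The gene lies on chromosome X (7959260 to 7976663), and its RefSeq window (chrX:7967911-7968160, minus strand), which falls inside that interval, holds 3 KLF1 motifs, in capitals, at 71, 55 and 34 bases before the start, and 0 GATA motifs.
Gata1: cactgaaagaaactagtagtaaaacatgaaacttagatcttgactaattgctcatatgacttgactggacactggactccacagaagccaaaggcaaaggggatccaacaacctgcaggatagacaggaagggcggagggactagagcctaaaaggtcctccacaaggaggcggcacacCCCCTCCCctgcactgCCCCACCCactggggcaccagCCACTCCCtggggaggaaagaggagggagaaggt

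The Cy5 level of Gata1 was -0.82, -1.07 and -0.74 in female controls and -1.26, -0.77 and -1.39 in male controls. It was 0.05, 0.33 and 0.38 in RAR females and 0.15, 0.28 and 0.15 in RAR males. The RAR arrays lay apart from the controls and close to each other. The difference was 1.13 ± 0.162 in females (limma adjusted p = 2.31e-05, against 29.6% of probes higher in Cy5) and 1.33 ± 0.162 in males (adjusted p = 3.31e-06, against 15.3%).

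Low dose females had Gata1 at 0.02, -0.08 and -0.06, and low dose males at -0.16, -0.64 and -0.27. High dose females had -0.15, -0.13 and 0.24, and high dose males -0.17, -0.23 and -0.13. The lowest irradiated array (-0.64, a low dose male) lay above the highest control (-0.74). The differences were 0.84 and 0.78 for low dose females and males (limma adjusted p = 0.00125 and 0.00356, against 5.69% and 3.04% of probes higher) and 0.86 and 0.96 for high dose (adjusted p = 0.000823 and 0.000336, against 6.85% and 6.25%). RAR against high dose (0.27 in females and 0.37 in males, adjusted p = 0.205 and 0.183) and RAR against low dose in females (0.29, adjusted p = 0.193) did not pass. The shares of all probes higher in Cy5 were 17.3% and 2.63% for RAR against high dose in females and males, and 10.5% for RAR against low dose in females. In males RAR was 0.55 above low dose (adjusted p = 0.0228), which is under 1.5-fold.

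The ratio of Gata1 gave no call in any comparison, with differences from control between -0.41 and 0.40, each with an SE of 0.562. Its Cy3 signal was well above background on 16 of 24 arrays, 1 of which was a control, and ranged over 12-fold. Cy3 was itself higher than in controls, by 1.52 in RAR females (limma adjusted p = 0.0473, against 17.1% of probes called in Cy3) and by 1.42 in RAR males (adjusted p = 0.11). The Cy3 differences were 1.14 and 0.36 in low dose females and males and 1.25 and 0.95 in high dose females and males, none past the threshold. The correlation of Cy5 and Cy3 of Gata1 over the 24 arrays was r = 0.649, given as a description. What moved Cy3 with Cy5 was not tested, so the Cy5 differences of Gata1 may not measure the level of the gene alone.

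**Figure D3:**
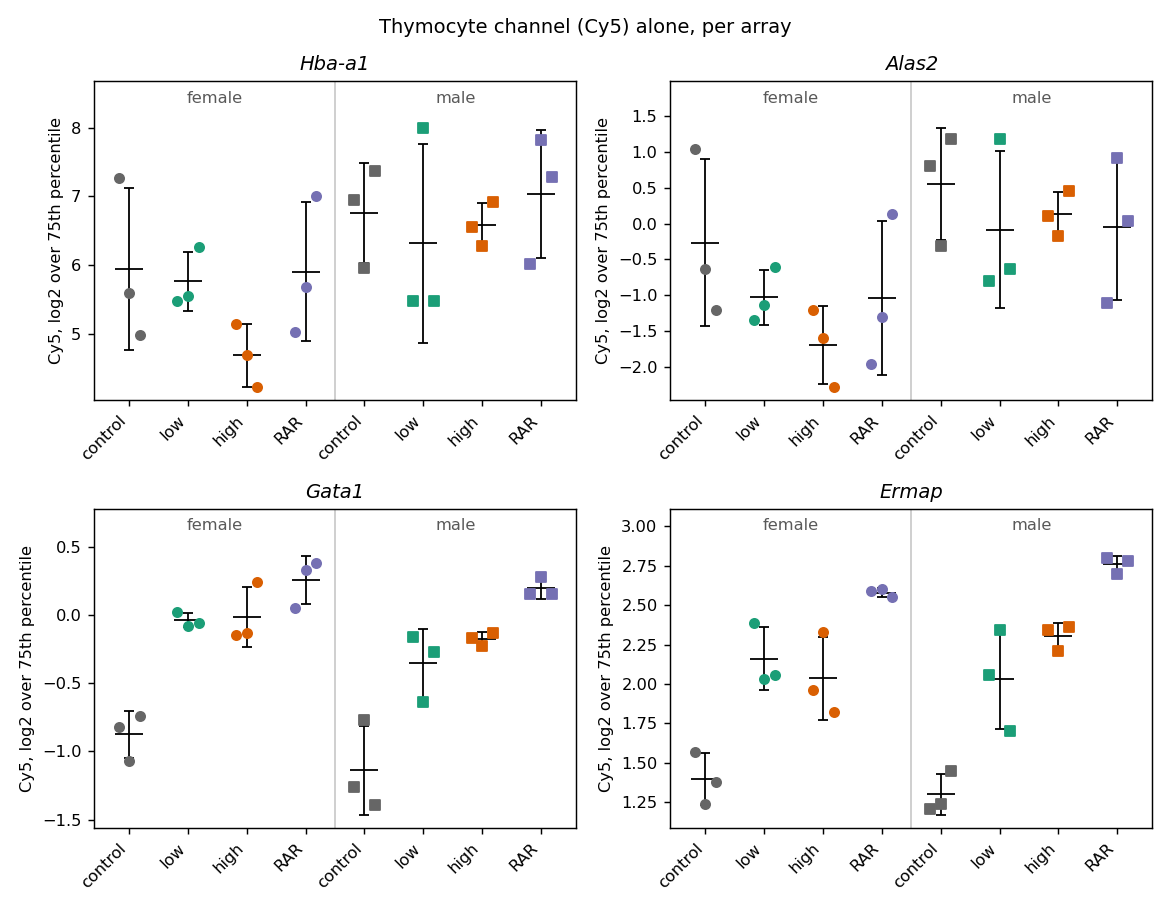
Cy5 signal alone, as log2 over each array's 75th percentile, for the 4 erythroid genes detected on all arrays, with 1 point per array and bars for the mean ± SD of 3 arrays per group. For Gata1 and Ermap the irradiated arrays start at -0.64 and 1.70, above the highest controls at -0.74 and 1.57, while Hba-a1 and Alas2 overlap between groups.

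Ermap encodes the erythroblast membrane-associated protein, a cell-surface protein of the immunoglobulin superfamily. It was the member whose rise passed the threshold both in Cy5 and in the ratio, in high dose males and in RAR animals of both sexes. It lies on chromosome 4 (119175457 to 119190013). Its RefSeq window of 250 bases (chr4:119189996-119190245, minus strand), which falls partly inside that interval, holds 0 matches to AGATAA and 0 to CCNCNCCC.
Ermap: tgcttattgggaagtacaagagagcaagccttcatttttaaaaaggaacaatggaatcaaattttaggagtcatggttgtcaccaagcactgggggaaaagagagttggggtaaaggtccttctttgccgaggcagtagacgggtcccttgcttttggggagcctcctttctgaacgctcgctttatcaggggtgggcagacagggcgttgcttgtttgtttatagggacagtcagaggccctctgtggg

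In Cy5, Ermap was 1.57, 1.24 and 1.38 in female controls and 1.21, 1.24 and 1.45 in male controls. It was 2.59, 2.60 and 2.55 in RAR females and 2.80, 2.70 and 2.78 in RAR males. The RAR arrays spread over less than the controls did. The difference was 1.19 ± 0.156 in females and 1.46 ± 0.156 in males, or 2.28-fold and 2.75-fold (limma adjusted p = 9.07e-06 and 7.9e-07).

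Low dose females had Ermap at 2.39, 2.03 and 2.06, and low dose males at 2.06, 2.34 and 1.70. High dose females had 1.96, 2.33 and 1.82, and high dose males 2.34, 2.21 and 2.36. These 12 arrays all lay between the controls and the RAR arrays in Cy5. The differences from control were 0.76 and 0.73 for low dose females and males (limma adjusted p = 0.00187 and 0.00454) and 0.64 and 1.01 for high dose (adjusted p = 0.00596 and 0.000158). RAR was above low dose in males (0.73, adjusted p = 0.00266, against 5.92% of probes higher). RAR was above high dose by 0.54 in females (adjusted p = 0.0177) and 0.46 in males (adjusted p = 0.0782), both under 1.5-fold. The high dose female difference fell under the threshold without control replicate 2 or high dose replicate 2 (0.57 and 0.50), as did that of low dose males without low dose replicate 2 (0.58), each then being under 1.5-fold.

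In the ratio, Ermap was 2.47, 1.39 and 1.95 in female controls and 1.25, 1.96 and 1.99 in male controls. RAR females had 3.15, 2.79 and 3.24 and RAR males 3.39, 3.28 and 3.38. RAR was 1.13 ± 0.309 higher in females and 1.61 ± 0.309 higher in males (limma adjusted p = 0.00944 and 0.000434), and high dose males were 1.01 higher (adjusted p = 0.0311). Its Cy3 signal was above background on all 24 arrays and ranged over 2.04-fold. The 2 other Ermap probes were above background in Cy5 on 2 and 0 arrays and gave no call in the ratio. In Cy5 alone the first was called higher in RAR over high dose females, and the second in RAR females over control, high dose and low dose, at signals at or near background, so no fold is given and the Ermap values rest on 1 probe. The high dose male call in the ratio was lost without control replicate 1 or high dose replicate 2 or 3 (0.77, 1.01 and 0.89, adjusted p = 0.159, 0.0687 and 0.118), and the RAR female call without control replicate 2 (0.85, adjusted p = 0.0647). With slide as a block both were lost (0.93 and 1.04, adjusted p = 0.149 and 0.154), and with quantile normalization the first (0.81, adjusted p = 0.0757).

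**Figure D4:**
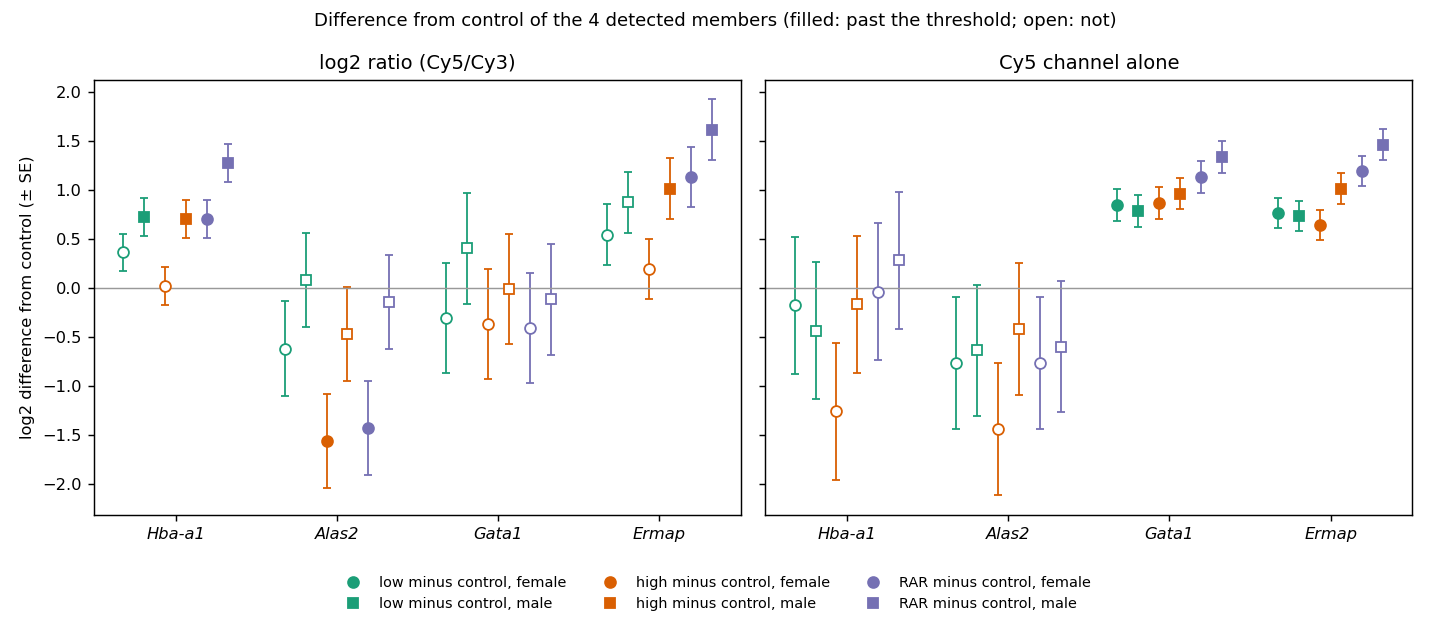
Log2 difference from the control of the same sex for the 4 erythroid genes detected on all arrays, in the ratio (left) and in Cy5 alone (right), with bars of ± 1 SE of the fit, filled where past the threshold. Hba-a1 is called in 4 of 6 comparisons in the ratio and 0 in Cy5, Gata1 in 0 and 6, and Ermap in 3 and 6.

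Cy5 alone was listed as an alternative to the ratio, while the settings tried within it and its use beside the ratio were chosen after seeing the data. After scaling to the 75th percentile, the median Cy5 difference of all probes was 0.64 in RAR females and 0.33 in RAR males, against -0.09 to 0.13 for low and high dose. Over the 18171 probes above background on every array the same medians were -0.25 and -0.23. The RAR differences of Gata1 and Ermap exceeded both. With the Cy5 arrays quantile-normalized, they were 1.06 and 1.28 for Gata1 and 1.34 and 1.63 for Ermap in RAR females and males. With slide as a block, 11 of the 12 Cy5 calls of the 2 genes held, and Ermap in high dose females did not (0.47, limma adjusted p = 0.389). Female high dose and RAR arrays shared no slide with the female controls. For these comparisons the block fit takes the slide differences from other groups, so it cannot by itself part slide from treatment. On slide 3, the single low dose female lay above the 3 control females by 0.82 for Gata1 and 0.67 for Ermap. On slide 2, the male RAR array lay above the male control array by 1.41 and 1.60. Slide 1 held 0 controls.

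In Gata1 and Ermap the arrays fall into a control and an irradiated cluster, so relations are given within each. Between the 2 genes, r was 0.138 in 6 controls (exact p = 0.797; rho = 0.087) and 0.447 in 18 irradiated arrays (permutation p = 0.0626; rho = 0.564, p = 0.0162). Between Hba-a1 and Gata1, r was -0.58 in controls (exact p = 0.21) and -0.108 in irradiated arrays (permutation p = 0.669). Between Hba-a1 and Ermap, r was 0.434 in controls (exact p = 0.381) and 0.499 in irradiated arrays (permutation p = 0.0348; rho = 0.507; r = 0.485 without the 2 farthest arrays). These within-cluster values were not adjusted for their number, and within slides r of Hba-a1 and Ermap was 0.712, -0.113 and -0.0107. The 5 genes whose Cy5 signal was most like that of Gata1, of 14110 genes, were Adora3, Alox5, Cyp4f18, Gcnt2 and Metrnl (r = 0.963 to 0.945). For Ermap they were Zfp408, Endov, Sfi1, Mfsd2b and D430042O09Rik (r = 0.978 to 0.969). For the mean scaled ratio of the 7 genes, the nearest was Zdhhc22 (r = 0.719), which also followed Hba-a1 in Cy5 (r = 0.974).

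Slc4a1 (band 3, the anion exchanger of the red-cell membrane) had ratios between -0.48 and 1.63 and passed the threshold in no comparison. Epb42 (protein 4.2, which anchors band 3) had ratios between -1.77 and 0.17. Klf1, the zinc-finger factor that activates β-globin, had ratios between -3.07 and -0.15 and its Cy5 signal passed background on 0 arrays. In Cy5 alone Klf1 was called higher in RAR females, with all 6 arrays compared below background, so no fold is given. Its Cy3 signal was above background on 15 arrays.

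In the fit as described no difference between the sexes passed the threshold in these genes. In the test of the interaction of sex and treatment the lowest adjusted p of the 7 genes was 0.807 in the ratio (limma F-test, Hba-a1, unadjusted p = 0.104), against 0.00359% of probes called. In Cy5 the lowest was 0.731 (0.0126% of probes called). RAR males were 0.53 above RAR females in Hba-a1 (adjusted p = 0.293) and 1.56 above them in Alas2 (adjusted p = 0.208, or 0.00425 with far values left out, which made it a call), against 0.438% of probes called in either direction (0.343% higher and 0.0952% lower). Leaving out far values also gave 2 of the 7 genes past the interaction test. The shares of probes in this paragraph belong to the fit as described. Those with far values left out are not given, so these calls cannot be set against them. RAR minus control differed between the sexes by 0.57 in Hba-a1 (adjusted p = 0.657) and by 0.49 in Ermap (adjusted p = 0.826).

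The wider red-cell programme did not move in 1 direction. Of 59 genes of 5 lists (globins, heme synthesis and iron, membrane, regulators, late enzymes), 7 were called higher and 10 lower in RAR females, and 8 higher and 13 lower in RAR males, in the ratio. The shares called among all probes were 9.61% and 10.8%, and 11.2% and 13.3%. The median difference of the 59 genes was -0.06 in females and -0.16 in males.

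Genes of heme synthesis and iron uptake were called in the lower direction only in the ratio, at 4 to 6 of 14 in each of the 6 comparisons with control, against 3.44% to 13.3% of all probes called lower. In Cy5 alone their median difference was -0.67 in RAR females and -0.5 in RAR males. Over the 18171 probes above background on every array it was -0.25 and -0.23. Tfrc, the transferrin receptor that brings iron into any dividing cell, fell by 1.16 in RAR females and by 1.43 in RAR males (limma adjusted p = 8.44e-08 and 4.92e-09). Slc25a39, a mitochondrial carrier, fell by 1.05 and by 0.84. Most of these 14 genes are also used by cells other than red cells. Their summed Cy5 level was taken in multiples of the array's 75th percentile. It was 65.5 to 72.4 in controls, 54.3 to 61.3 at low dose, 51 to 56.1 at high dose and 42.8 to 48.4 in RAR arrays.

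Among 11 regulators, 3 were called higher and 1 lower in RAR females and 3 higher and 2 lower in RAR males, against 9.61% of probes higher and 10.8% lower, and 11.2% and 13.3%. Lmo2, a bridging factor of the GATA1 complex, was 1.47 and 1.57 higher (limma adjusted p = 1.01e-05 and 3.29e-06), and Bcl11a, a repressor of embryonic globin genes also used by lymphocytes, 1.28 and 1.73 higher. Tal1, a partner of GATA1 in the same complex, was called too, but was above background on 6 arrays. Epor, the erythropoietin receptor, fell by 1.04 in females and by 0.83 in males (adjusted p = 0.0136 and 0.0426), and in Cy5 alone the male difference did not pass (-0.66, adjusted p = 0.0725). Of 11 late enzymes and maturation genes, 1 was called higher and 3 lower in RAR females and 1 higher and 4 lower in RAR males, against the same shares. Hemgn, a nuclear protein of haematopoietic cells, was the gene called higher, by 1.64 and 1.85 in RAR females and males. Car2, a carbonic anhydrase, fell by 0.95 and by 1.33, and Fam210b was called lower in RAR males (-1.27).

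The structural membrane genes gave little signal. Of 16, 5 were above background in Cy5 on every array, while Rhag, Rhd, Dmtn, Tmod1 and Icam4 were above it on 0. Calls among Sptb, Ank1 and Kel concerned genes above background on 1, 5 and 1 arrays, so their values are not given.

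Summed levels of other blood cells' markers are given beside Gata1 and Ermap. The summed Cy5 level of 10 mast-cell and eosinophil genes, as a multiple of the array's 75th percentile, was 3.67 to 5.12 in controls, 7.29 to 9.84 at low dose, 8.45 to 10.9 at high dose and 9.64 to 18.1 in RAR arrays. A sum weighs the brightest genes most. In the ratio, the median difference of the 10 genes lay between -0.51 and -0.18 in the 6 comparisons with control. In RAR females 1 was called higher and 2 lower, against 9.61% and 10.8% of all probes. In RAR males 3 were called higher and 2 lower, against 11.2% and 13.3%. In Cy5 alone the median difference was 0.9 in RAR females and -0.06 in RAR males. In that list, Tpsb2, a mast-cell tryptase, was 3.28 higher in RAR males in the ratio, while Cma1, Ms4a2 and Epx were above background on 0 arrays. Cpa3, mast-cell carboxypeptidase, fell in Cy5 in all 6 comparisons, by 0.81 to 1.71.

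The summed level of 10 neutrophil genes was 367 to 489 in controls and 527 to 1020 over the irradiated groups, and 3 or 4 of the 10 were called higher in the ratio in each comparison with control, with 2 lower in RAR males, against 3.19% to 11.2% of all probes called higher. S100a8, a neutrophil calcium-binding protein, was 2.72 and 2.44 higher in RAR females and males. For 12 platelet and megakaryocyte genes the sum was 6.86 to 8.53 in controls, 8.19 to 35.9 at low dose (median 9.63), 8.38 to 10.3 at high dose and 10.2 to 12.4 in RAR arrays. Of these 12, 2 were above background in Cy5 on every array, and Ppbp and Gp5 on 0. In the ratio 0 were called at low or high dose. In RAR females and males 3 and 2 were called higher, against 9.61% and 11.2% of all probes. Pf4, platelet factor 4, was 0.68 and 1.16 higher in RAR females and males.

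For 12 macrophage genes the sum was 25.4 to 41.1 in controls, 31 to 37.2 at low dose, 30 to 36.3 at high dose and 54.7 to 95 in RAR arrays, with Hmox1, the heme-degrading oxygenase, 2.71 and 3.08 higher in RAR females and males. The 8 B-cell genes summed to 12.8 to 17.4 in controls, 9.41 to 11.4 at low dose, 7.87 to 10.9 at high dose and 6.59 to 9.57 in RAR arrays. The 13 thymocyte genes summed to 1430 to 1700 in controls and to 819 to 1130 in RAR arrays. These sums are Cy5 values. In Cy5 alone the median difference of the 13 genes was -0.68 in RAR females and -0.84 in RAR males. Over the 18171 probes above background on every array, the median Cy5 difference was -0.25 and -0.23 in these comparisons. In the ratio 2 thymocyte genes were higher and 3 lower in females, against 9.61% and 10.8% of all probes. In males 4 were higher and 1 lower, against 11.2% and 13.3%. Rag1, a recombinase of antigen receptor genes, was 0.95 higher in the ratio in RAR males and -0.69 in Cy5. The part of any of these cell types in the Gata1 and Ermap results was not tested. The globin sum, at 165 to 754 in controls and 188 to 1010 in RAR arrays, overlapped between all 4 treatments.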

How the data were processed

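RNA of 24 thymocyte samples (3 per sex and treatment, 8 groups) was hybridised on 2-colour Agilent arrays and extracted by the authors with Feature Extraction 11.5.1.1. The deposited table holds log2 ratios of Cy5 over Cy3 for 55681 probes, within 0.01 of the ratio of the processed signals for nearly all probes. The deposited scanner files hold Cy5 and Cy3 intensity values, already background-subtracted and dye-normalized by that software. All 24 columns were used as mapped by the labels.

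Group means of the log2 ratio were fitted in limma 3.58.1 (R 4.3.3) over all 24 arrays, with Benjamini-Hochberg adjustment over all probes. A call required an adjusted p under 0.05 and 1.5-fold. Each group shares the spread (16 residual and 1.63 prior degrees of freedom), and comparisons within a sex share their controls. Cy5 and Cy3 alone are log2 processed signals minus the array's 75th percentile, fitted likewise. A gene with several probes took that with the highest mean Cy5. The number of arrays limits the precision. The methods give 3 animals a group, and the p-values measure the spread between these samples. Correlations used permutation tests (SciPy 1.17.1, 100000 permutations, exact within 6 or 8 arrays). Promoter windows came from RefSeq (GRCm38.p6). The fitting steps were tested on simulated data with 200 changed probes.

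The members and lists were chosen with earlier results of these data known. Named were every member probe, up to 3 genes of each other list with the largest called difference from control, a few defining genes, and the 5 genes most like the mean of the members. The Cy5 likenesses to Gata1 and Ermap were chosen after their values were seen. Alternatives were another background correction, quantile normalization, Cy5 alone, probe and outlier filters, slide and replicate blocks, array weights, a larger fold and leaving out each array. Some named genes of the wider lists are not reported here.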

Additional observations from a re-analysis of the deposited data

How the results depend on the processing

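Counts of the 7 erythroid genes past the threshold, and differences of Hba-a1, Alas2, Gata1 and Ermap, were recomputed under each alternative. Shares of all probes called are not given in this section. Of the log2 ratio differences, 317 values kept direction and side of the threshold, 44 changed sign, 19 lost and 16 gained a call, leaving-out aside. With arrays left out in turn, 996 held, 27 changed sign, 24 lost and 9 gained a call. The differences that changed sign were uncalled in the fit as described, except for some of Hba-a1 where Cy5 alone replaced the ratio. With Cy5 alone, Gata1 went from negative and uncalled to positive and called against controls. This held in low dose females and in high dose and RAR animals of both sexes. These are counted as sign changes and not as gained calls. Causes were not tested unless the setting itself tests fewer probes.

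In Cy5 alone the count was 2 in low dose females, low dose males and high dose females, 0 for RAR over high dose in females and 1 for RAR over low dose in males. Hba-a1 was -0.18 and -0.44 at low dose (females, males), -1.26 and -0.17 at high dose and -0.04 in RAR females. Alas2 was -0.64 in low dose males, -0.18 for RAR over high dose and 0.03 for RAR over low dose in males. Gata1 was 0.84, 0.86, 0.96, 1.13 and 1.33 for low dose females, high dose females, high dose males, RAR females and RAR males, and 0.27, 0.37, 0.29 and 0.55 for RAR over high dose (females, males) and over low dose (females, males).

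With normexp and loess the count was 2 in low dose males, 0 in high dose females, 2 and 1 for RAR over high dose in females and males, and 2 for RAR over low dose in males. Hba-a1 was -0.03 in high dose females. Alas2 was -0.46 in low dose males, -0.04 for RAR over high dose and 0.11 for RAR over low dose in males. Gata1 was 0.44 in low and 0.44 in high dose females, 0.58 in high dose males, 0.64 and 0.70 in RAR females and males, 0.20 and 0.11 for RAR over high dose and 0.20 and 0.33 for RAR over low dose.

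Quantile normalization gave counts of 0 in low dose males, high dose females and high dose males, Alas2 at -0.07 in low dose males, and Ermap at -0.14 for male over female RAR. Slide as a block gave counts of 0 in high dose females, high dose males, RAR females and RAR over high dose in females, Hba-a1 at -0.15 in high dose females, Alas2 at 0.03 in RAR males and Gata1 at 0.03 for RAR over high dose in males.

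Leaving out dim probes gave 2 in low dose males and 2 for RAR over high dose in females. Leaving out far values, which removes samples, gave 2 and 1 for RAR over high dose in females and males, 1 for RAR over low dose in males, 1 for male over female RAR and 2 for the interaction. It put Alas2 at 0.02 in high dose males and -0.17 for RAR over high dose in males, and Gata1 at -0.59 in low dose males, 0.03 in RAR males, 0.55 for RAR over high dose in males, 0.34 and 0.62 for RAR over low dose in females and males and 0.39 for male over female RAR. Array weights gave 1 for RAR over low dose in males and Gata1 at 0.01 for RAR over high dose in females. A log2 change of at least 1.5 left 0 in low dose males, high dose males, RAR females and RAR over high dose in females, and 1 in RAR males.

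The replicate numbers share only a number: deviations of same-numbered arrays correlated at a median of -0.00207 over 84 pairs. With the replicate block the count in high dose females was 0 (Alas2 -1.56, adjusted p = 0.0569), and no other call of these genes changed.

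With single arrays left out, the counts ranged from 0 to 2 in low dose males, 0 to 1 in high dose females, 0 to 2 in high dose males, 1 to 3 in RAR females, 0 to 2 and 0 to 1 for RAR over high dose in females and males, and 0 to 2 for RAR over low dose in males. Hba-a1 in high dose females ranged from -0.04 to 0.12. Alas2 ranged from -0.14 to 0.25, -0.91 to 0.02 and -0.41 to 0.02 in low dose, high dose and RAR males, and from -0.32 to 0.72 and -0.17 to 0.76 for RAR over high dose in females and males. Gata1 ranged from -0.75 to 0.05 in low dose females, -0.11 to 0.89 in low dose males, -0.52 to 0.48 in high dose males and -0.63 to 0.54 in RAR males. For RAR over high dose it ranged from -0.21 to 0.24 and -0.48 to 0.55, for RAR over low dose from -0.46 to 0.34 and -0.89 to 0.13, in females and males, and for male over female RAR from -0.63 to 0.39. Ermap in high dose females ranged from -0.08 to 0.46. Signal over background limits the ratios of Alas2 and Gata1, whose Cy3 was above background on 2 and 16 arrays.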
